A study of Mus musculus with 6 samples.

Results

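Interferon-stimulated genes are genes that cells switch on when interferons bind their receptors. A set of 33 of them, listed by symbol, was followed in whole ovaries of mice that lack Galt and of wildtype mice. Each of the 33 symbols matched 1 Ensembl gene among the 55487 in the table of counts. Galt encodes galactose-1-phosphate uridylyltransferase, the Leloir pathway enzyme whose loss causes classic galactosemia in humans. The groups were 3 libraries from GalT-/- mice, called GalTKO, and 3 libraries from wildtype mice. Both genotypes shared the cbl/6-ola/129 strain label, an age of postnatal day 49 and a diet with 2.5% galactose for 4 weeks. How the Galt allele was made, the litter, the estrous stage and whether each library stands for 1 animal are not described in the labels. The p-values therefore measure the spread between these samples. The labels name no interferon treatment or infection for any library and do not describe the health of the mice. The response of these genes to interferon is therefore background and was not measured here.

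Type I interferons signal through the receptor chains IFNAR1 and IFNAR2 to the kinases JAK1 and TYK2, and from there to a complex that contains STAT2 and IRF9. This complex binds the interferon-stimulated response element in the promoters of its targets. Many targets bind viral RNA, block viral translation or attach ISG15 to proteins, and several also respond to type II interferon. At low levels they are expressed in uninfected tissue by macrophages, endothelial cells and other cells.

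The libraries held 25729564, 22910143 and 19232486 gene counts in GalTKO replicates 1 to 3, and 24861338, 23714522 and 23685626 in wildtype replicates 1 to 3. Levels are in CPM, counts relative to TMM-scaled library size, and fold changes are log2 of GalTKO over wildtype. Galt had 10 counts over the GalTKO and 1227 over the wildtype libraries, as the labels state for a knockout. Markers of granulosa cells, luteal cells and oocytes were present in all 6 libraries. GalTKO replicate 2 stood apart from the other libraries on the second principal component of all tested genes, at 46.1 against -17.3 and -28.4 in GalTKO replicates 1 and 3 and -1.93 to 1.98 in wildtype libraries. Cyp17a1, a steroid-making enzyme of theca cells, was at 399.7, 7.29 and 296.0 CPM in GalTKO and 119.6, 132.1 and 119.2 CPM in wildtype replicates 1 to 3. The count of called members and the member median are given with and without this library. Mitochondrial genes took 2.22% to 3.53% of counts in GalTKO and 1.37% to 1.97% in wildtype libraries, and the part of this difference in the results below was not tested.

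To show promoters of members from several role groups, with and without an exact match to the string given below, the windows of 6 members are printed. Each runs from 250 bases before to 50 bases after the annotated start. They come from RefSeq on GRCm38.p6, 5′ to 3′ on the gene's strand. The positions are chr3:151749861-151750160 (minus strand) for Ifi44, chr3:151762842-151763141 (minus) for Ifi44l, chr19:34640639-34640938 (plus) for Ifit1, chr19:34583279-34583578 (plus) for Ifit3, chr12:26456403-26456702 (minus) for Rsad2 and chr5:120907476-120907775 (minus) for Oas1a. Capitals mark each match to GAAANNGAAA on either strand (TTTCNNTTTC when read on the other), the core of the interferon-stimulated response element, with overlapping matches merged.
Ifi44: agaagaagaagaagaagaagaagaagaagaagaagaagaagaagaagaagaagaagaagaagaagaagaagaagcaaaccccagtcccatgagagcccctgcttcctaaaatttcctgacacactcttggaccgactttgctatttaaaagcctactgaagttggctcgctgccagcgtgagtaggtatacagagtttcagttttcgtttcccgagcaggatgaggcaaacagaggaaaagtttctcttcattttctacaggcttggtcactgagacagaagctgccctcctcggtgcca
Ifi44l: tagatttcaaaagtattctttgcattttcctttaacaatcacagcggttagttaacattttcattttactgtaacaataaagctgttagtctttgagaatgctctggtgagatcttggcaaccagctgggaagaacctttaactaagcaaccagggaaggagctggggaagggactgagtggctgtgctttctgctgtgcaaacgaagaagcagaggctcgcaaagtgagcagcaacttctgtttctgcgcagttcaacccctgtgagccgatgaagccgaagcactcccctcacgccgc
Ifit1: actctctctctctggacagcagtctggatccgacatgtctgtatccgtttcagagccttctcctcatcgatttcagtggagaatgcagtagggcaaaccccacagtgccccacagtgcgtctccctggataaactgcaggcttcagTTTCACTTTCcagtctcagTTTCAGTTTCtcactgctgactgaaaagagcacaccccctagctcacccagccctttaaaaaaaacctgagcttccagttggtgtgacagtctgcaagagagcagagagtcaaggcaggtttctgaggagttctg
Ifit3: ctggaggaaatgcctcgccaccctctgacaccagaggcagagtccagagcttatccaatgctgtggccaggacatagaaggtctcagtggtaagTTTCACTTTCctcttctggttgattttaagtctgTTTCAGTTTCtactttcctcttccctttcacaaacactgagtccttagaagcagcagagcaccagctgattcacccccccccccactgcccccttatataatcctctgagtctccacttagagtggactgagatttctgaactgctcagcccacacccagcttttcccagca
Rsad2: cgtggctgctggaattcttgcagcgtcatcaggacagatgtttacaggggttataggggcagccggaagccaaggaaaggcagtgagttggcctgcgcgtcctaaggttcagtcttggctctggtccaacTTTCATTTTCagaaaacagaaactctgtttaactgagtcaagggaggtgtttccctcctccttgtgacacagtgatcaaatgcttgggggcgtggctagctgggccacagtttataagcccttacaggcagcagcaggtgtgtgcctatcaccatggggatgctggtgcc
Oas1a: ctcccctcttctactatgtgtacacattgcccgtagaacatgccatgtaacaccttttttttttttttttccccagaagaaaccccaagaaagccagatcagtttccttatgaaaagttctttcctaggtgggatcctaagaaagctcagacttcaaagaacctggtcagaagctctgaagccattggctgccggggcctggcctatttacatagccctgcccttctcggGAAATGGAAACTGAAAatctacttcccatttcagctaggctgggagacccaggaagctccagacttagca
Ifit1 and Ifit3 each held 2 separate matches, Oas1a 2 that overlap, and Rsad2 1, while these letters are not in the Ifi44 and Ifi44l windows. Of the 33 members 25 had a RefSeq window, and 11 of the 25 (44.0%) held a match, as did 1079 (3.99%) of all 27025 genes with a window and 1131 (3.44%) of all 32851 windows. Isg15 held the most among the members, 3. A match is a string of letters and was not tested as a binding site. Only exact matches were searched for, so a window without a match can still hold a variant of the element.

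As a set, the members were lower in GalTKO ovaries in the sign of the fold change, while single genes seldom passed the test. Their summed level was 644.9, 875.4 and 711.1 CPM in GalTKO replicates 1 to 3, against 818.5, 930.9 and 1211.5 CPM in wildtype replicates 1 to 3. GalTKO replicate 2 lay above wildtype replicate 1, so the groups overlapped in this sum. A filter on low counts left 32 members for the test, all but Mx1. Of the 32, 29 had a negative fold change, against 46.6% of all 16957 genes tested, and the median was -0.69 for the members and 0.02 for all genes. At an unadjusted p under 0.05 were 16 members, all lower, against 8.90% of all genes that were lower and 8.19% that were higher. After Benjamini-Hochberg adjustment over all genes (edgeR quasi-likelihood test), 2 members were called, Ifi44 and Ifi44l, both lower, with 1.43% of all genes called lower, 1.13% called higher and 2.55% called in either direction. A fold change below -1 was found in 11 members and in 2.84% of all genes, but in 4 members and 2.73% of all genes without wildtype replicate 3. In 10 of the 32, all 3 GalTKO values lay below all 3 wildtype values, a pattern that 12.0% of all tested genes showed. The members were measured in the same libraries, so these counts are not independent replicates of the genotype, and no test of the set was made. In bulk tissue, fewer cells of a type and less RNA per cell cannot be told apart.

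The number of called members moved with the tool and with the libraries. It was 6 by DESeq2, where 3.62% of genes were called lower, 1 by limma voom, where 1.72% were, and 4 with no filter on low counts, where 1.64% were. It was 6 with GalTKO replicate 2 left out (2.43% of all genes called lower), 2 with wildtype replicate 1 left out (0.630%), and 1 with any other single library left out (0.492% to 0.949%). Ifi44l was called in all of these fits, and Samd9l, Ifit2, Rsad2 and Cmpk2 were the other calls of DESeq2 beside Ifi44.

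**Figure D1:**
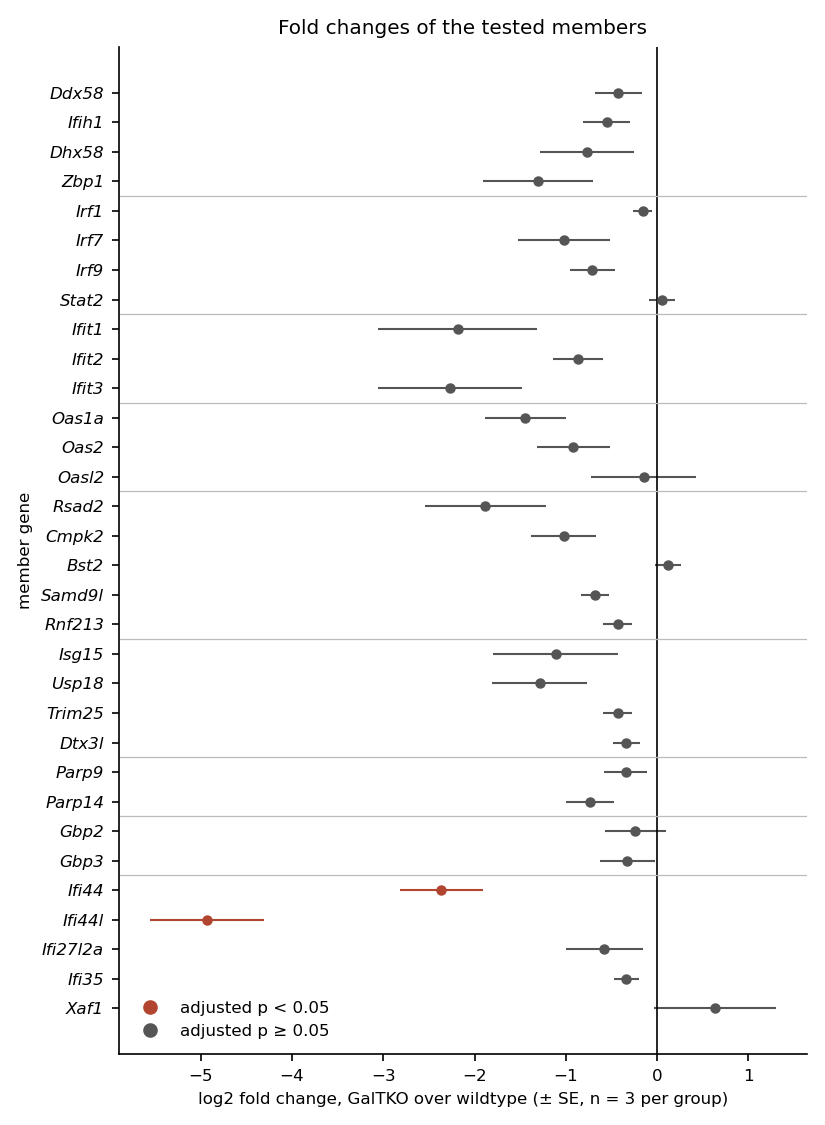
Log2 fold change (GalTKO over wildtype, x axis) with SE for the 32 tested members, grouped by role, n = 3 libraries per genotype. Red points are the 2 members with an adjusted p under 0.05, Ifi44 at -2.36 and Ifi44l at -4.93, and 29 of the 32 points lie left of 0.

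Ifi44 and Ifi44l are neighbouring interferon-induced genes on chromosome 3, on the same strand and 8.78 kb apart, whose protein products are related to each other. Ifi44l (ENSMUSG00000039146) was almost without reads in GalTKO ovaries, at 0.0774, 0 and 0.0521 CPM in replicates 1 to 3, against 1.32, 1.14 and 2.04 CPM in wildtype replicates 1 to 3. These are 2, 0 and 1 counts against 33, 27 and 47 counts, and the groups are far apart. With no count, GalTKO replicate 2 could hold at most 0.129 CPM by counting error alone. Ifi44l fell by 4.93 ± 0.62 on the log2 scale (SE, n = 3 per group; edgeR adjusted p = 0.00612), and passed with each library left out in turn (adjusted p up to 0.0314). Its counts gave a wildtype over GalTKO ratio of 33.9 (95% interval 11.3 to 167, counting error only). The ratio was 63.2 without GalTKO replicate 1 and 22.4 without GalTKO replicate 2, and the fold change without GalTKO replicate 1 was -5.69. Ifi44l passed the filter through its wildtype counts, so with so few GalTKO counts it could be tested only as a gene that is lower in GalTKO.

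Ifi44 (ENSMUSG00000028037) reached 1.04, 2.03 and 1.35 CPM in GalTKO replicates 1 to 3, against 3.68, 7.57 and 11.6 CPM in wildtype replicates 1 to 3. The groups do not overlap, but the wildtype libraries spread over a 3.14-fold range. It fell by 2.36 ± 0.45 (log2, SE, n = 3 per group; edgeR adjusted p = 0.0431), to a level 5.14-fold lower. This call was lost without wildtype replicate 2 (-2.37, adjusted p = 0.133), wildtype replicate 3 (-1.93, 0.0993), GalTKO replicate 1 (-2.15, 0.135) or GalTKO replicate 3 (-2.31, 0.132), and by limma voom (adjusted p = 0.111). In each of these fits Ifi44 stayed negative.

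Among the RNA and DNA sensors, Ddx58 encodes RIG-I and Ifih1 encodes MDA5, receptors for viral double-stranded RNA. Dhx58 encodes LGP2, which modulates both, and Zbp1 a sensor of Z-form nucleic acid. None of the 4 passed, all 4 had a negative fold change, from -1.30 ± 0.60 (Zbp1, SE) to -0.42 ± 0.26 (Ddx58), and in all 4 the genotypes overlapped. Without wildtype replicate 3 the values were -0.79 for Zbp1, -0.33 for Dhx58, -0.35 for Ifih1 and -0.11 for Ddx58. Ddx58 had 28.9, 36.8 and 24.6 CPM in GalTKO replicates 1 to 3 and 29.8, 35.1 and 56.4 CPM in wildtype replicates 1 to 3. Ifih1 had 14.4, 25.0 and 15.1 CPM in GalTKO and 21.3, 24.8 and 33.8 CPM in wildtype replicates 1 to 3. In both genes the highest GalTKO library was replicate 2 and the highest wildtype library replicate 3. Dhx58 showed the same order at low level, from 0.989 to 2.93 CPM in GalTKO and from 1.52 to 4.46 CPM in wildtype libraries.

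None of the 4 transcription factors of the pathway passed, and in all 4 the genotypes overlapped. Irf9, the DNA-binding part of the complex with STAT2, had 16.7, 22.8 and 15.1 CPM in GalTKO replicates 1 to 3, against 21.4, 28.2 and 39.7 CPM in wildtype replicates 1 to 3 (fold change -0.71 ± 0.25, SE; edgeR adjusted p = 0.212). The groups overlapped between GalTKO replicate 2 and wildtype replicate 1. Stat2, its partner, was at 36.8, 42.3 and 32.2 CPM in GalTKO and 32.5, 32.7 and 42.4 CPM in wildtype replicates 1 to 3, with a fold change of 0.05 ± 0.14. Irf1, induced by both interferon types, stayed within 24.7 to 30.5 CPM in GalTKO and 30.1 to 31.6 CPM in wildtype libraries (-0.16 ± 0.10). Irf7, which amplifies interferon production, ran from 2.50 to 7.59 CPM in GalTKO and from 5.56 to 15.0 CPM in wildtype libraries (-1.02 ± 0.50), and stood at -1.57 without GalTKO replicate 2 and -0.52 without wildtype replicate 3. Irf7 overlaps Phrf1 on the opposite strand, which held 14044 counts against 990 for Irf7, and Irf9 overlaps Rnf31 on the same strand (3579 against 3369 counts). How the counting treated strand and overlaps is not stated in the sources, which leaves the values of Irf7 and Irf9 uncertain.

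The IFIT genes, which encode proteins that bind foreign RNA and hold back its translation, lie together on chromosome 19 and had the lowest median of the role groups, -2.18 over 3 genes. Ifit1 had 1.28, 3.11 and 0.885 CPM in GalTKO replicates 1 to 3, against 2.64, 3.89 and 17.7 CPM in wildtype replicates 1 to 3 (-2.18 ± 0.87, SE; edgeR adjusted p = 0.279). Ifit3 had 1.04, 3.19 and 0.729 CPM in GalTKO, against 3.52, 4.65 and 16.0 CPM in wildtype replicates 1 to 3 (-2.27 ± 0.79, adjusted p = 0.224). In both, wildtype replicate 3 stood far above the other libraries, and without it the fold changes were -0.88 for Ifit1 and -1.29 for Ifit3. Ifit2 was steadier, at 4.45, 8.28 and 5.62 CPM in GalTKO and 8.64, 10.3 and 14.5 CPM in wildtype replicates 1 to 3 (-0.86 ± 0.27, adjusted p = 0.162). The genotypes did not overlap for Ifit2 and Ifit3, and did for Ifit1. Ifit3 has a close copy, Ifit3b, and reads shared between them make single values uncertain.

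The oligoadenylate synthetases make the messenger that activates RNase L, which cuts RNA. Oas1a had 0.697, 1.08 and 0.260 CPM in GalTKO replicates 1 to 3, against 1.599, 1.78 and 2.30 CPM in wildtype replicates 1 to 3 (-1.45 ± 0.44, SE; edgeR adjusted p = 0.149). Its groups do not overlap, although its sums were 48 counts in GalTKO and 135 in wildtype libraries and it has close relatives nearby. Oas2 had 0.851, 1.596 and 0.989 CPM in GalTKO and 1.32, 2.07 and 3.12 CPM in wildtype replicates 1 to 3 (-0.92 ± 0.40, adjusted p = 0.286), with an overlap. Oasl2, a synthetase-like gene with ubiquitin-like domains, had 13.0, 28.9 and 10.05 CPM in GalTKO and 9.68, 15.7 and 32.3 CPM in wildtype replicates 1 to 3. The genotypes overlapped widely for Oasl2, and its fold change of -0.14 ± 0.58 was 0.45 without wildtype replicate 3.

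**Figure D2:**
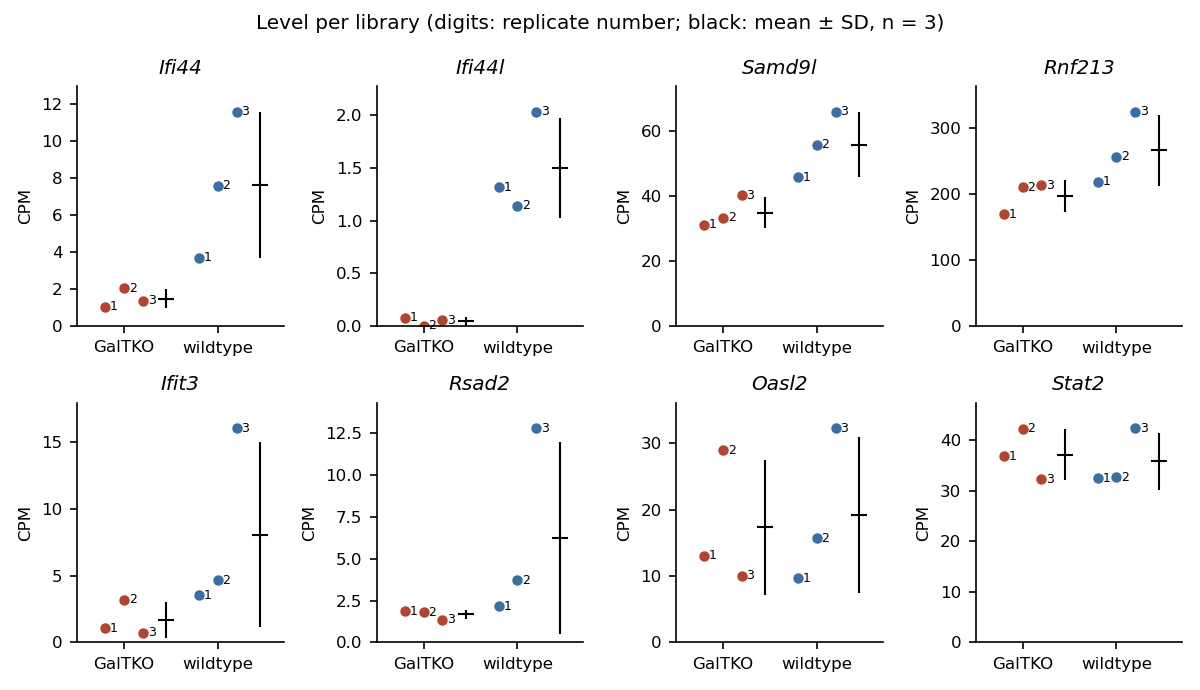
Level in CPM (y axis, from 0) of 8 members in each library, GalTKO left and wildtype right; digits give the replicate number and black bars the mean ± SD (n = 3). Ifi44, Ifi44l, Samd9l, Rnf213, Ifit3 and Rsad2 show no overlap between genotypes, while Oasl2 reaches 28.9 CPM in GalTKO replicate 2 and 32.3 CPM in wildtype replicate 3.

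Among the other antiviral effectors, Samd9l, an inhibitor of translation and cell growth, came closest to a call. It had 31.2, 33.3 and 40.4 CPM in GalTKO replicates 1 to 3, against 45.8, 56.0 and 66.1 CPM in wildtype replicates 1 to 3 (-0.68 ± 0.15, SE; edgeR adjusted p = 0.0646). The groups are separate, and DESeq2 called it (adjusted p = 0.00357). Samd9l was called in 3 of 14 alternative settings, and in 0 of the 6 fits with a library left out (edgeR adjusted p up to 0.191). Rnf213, a giant ubiquitin ligase linked in humans to moyamoya disease of the brain arteries, had 169.6, 210.1 and 213.2 CPM in GalTKO and 218.5, 256.4 and 325.1 CPM in wildtype replicates 1 to 3 (-0.43 ± 0.16, adjusted p = 0.216). Rsad2, which encodes viperin, had 1.86, 1.81 and 1.35 CPM in GalTKO and 2.16, 3.72 and 12.8 CPM in wildtype replicates 1 to 3 (-1.88 ± 0.66, adjusted p = 0.221). For both genes the lowest wildtype library lay just above the highest GalTKO library. Cmpk2, a nucleotide kinase gene that lies 12.8 kb from Rsad2 on the opposite strand, had 7.62, 9.49 and 6.30 CPM in GalTKO and 10.1, 12.4 and 25.2 CPM in wildtype replicates 1 to 3 (-1.02 ± 0.35, adjusted p = 0.212). Without wildtype replicate 3 the fold change of Rsad2 was -0.80 and that of Cmpk2 -0.53. Bst2, which encodes tetherin, went the other way, with 78.1, 76.1 and 103.7 CPM in GalTKO and 67.9, 86.8 and 82.9 CPM in wildtype replicates 1 to 3 (0.12 ± 0.14). Mx1, a dynamin-like antiviral GTPase gene that many laboratory strains carry in a defective form, was not tested. It held 0, 2 and 2 counts in GalTKO and 6, 5 and 18 counts in wildtype replicates 1 to 3. The ratio of wildtype over GalTKO counts was 6.89 (95% interval 2.42 to 27.0, counting error only). Wildtype replicate 3 held 18 of the 29 wildtype counts. The ratio was 3.86 (1.14 to 16.6) without that library and 4.28 without GalTKO replicate 1.

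ISG15 is a ubiquitin-like protein that is attached to other proteins, and USP18 removes it. Isg15 had 1.04, 2.20 and 0.521 CPM in GalTKO and 1.119, 1.90 and 5.24 CPM in wildtype replicates 1 to 3 (-1.11 ± 0.69, SE; edgeR adjusted p = 0.469). Usp18 had 1.74, 1.51 and 1.56 CPM in GalTKO and 1.48, 3.21 and 7.10 CPM in wildtype replicates 1 to 3 (-1.29 ± 0.52, adjusted p = 0.268). For Isg15, wildtype replicates 1 and 2 lay within the GalTKO range and only wildtype replicate 3 above it, and without that library the fold change was -0.25 (adjusted p = 0.909). For Usp18, wildtype replicate 1 lay below the GalTKO range and the other wildtype libraries above it, and the fold change was -0.54 without wildtype replicate 3. Trim25, the ubiquitin ligase that activates RIG-I, had 90.5, 128.0 and 86.6 CPM in GalTKO and 140.9, 121.4 and 148.5 CPM in wildtype replicates 1 to 3 (-0.43 ± 0.16, adjusted p = 0.224). Its overlap came from GalTKO replicate 2 alone, and without that library it passed (-0.63, adjusted p = 0.0184). Leaving out the overlapping library favours a pass, and this was the only 1 of 6 fits with a library left out that called Trim25. In the others the adjusted p reached 0.490, and the fold change was -0.33 without GalTKO replicate 3. Dtx3l, a ubiquitin ligase gene, stood at -0.34 ± 0.15 with an overlap.

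PARP9 forms a complex with DTX3L, and PARP14 is an ADP-ribosyltransferase; the 3 genes lie together on chromosome 16. Parp14 had 17.5, 29.2 and 16.6 CPM in GalTKO and 26.5, 35.9 and 43.2 CPM in wildtype replicates 1 to 3 (-0.74 ± 0.26, SE; edgeR adjusted p = 0.219). Without GalTKO replicate 2, the library that overlaps wildtype, it passed (-1.05, adjusted p = 0.0322). This was the only 1 of 6 fits with a library left out that called Parp14, and in the others its adjusted p reached 0.486. Parp9 had 16.5, 28.2 and 19.5 CPM in GalTKO and 20.7, 27.8 and 33.05 CPM in wildtype replicates 1 to 3 (-0.34 ± 0.24). Dtx3l and Parp9 overlap on opposite strands, so their values are uncertain. The guanylate-binding proteins GBP2 and GBP3 are GTPases, strongly induced by type II interferon, that attack vacuoles of pathogens. Gbp2 had 17.9, 46.6 and 24.1 CPM in GalTKO and 33.3, 33.03 and 38.03 CPM in wildtype replicates 1 to 3 (-0.24 ± 0.34), and Gbp3 stood at -0.33 ± 0.30. GalTKO replicate 2 held the highest Gbp2 level of all 6 libraries. Gbp2 passed without that library (-0.73, edgeR adjusted p = 0.0332), while without GalTKO replicate 1 it stood at 0.025 (adjusted p = 0.979). Leaving out the highest GalTKO library favours a pass, and this was the only 1 of 14 alternative settings that called Gbp2. With all libraries its edgeR adjusted p was 0.776. With a library left out Gbp3 ran from -0.72 to -0.14.

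Of the remaining members, Ifi35 moved little but evenly. It had 9.06, 8.45 and 9.94 CPM in GalTKO and 10.3, 12.1 and 12.3 CPM in wildtype replicates 1 to 3, without overlap (-0.34 ± 0.14, SE; edgeR adjusted p = 0.272). Ifi27l2a, which encodes a small hydrophobic protein, ran from 2.55 to 7.59 CPM in GalTKO and from 4.64 to 9.05 CPM in wildtype libraries (-0.58 ± 0.42). Xaf1, an antagonist of the apoptosis inhibitor XIAP, had the highest fold change of the tested members, 0.63 ± 0.67. It had 2.17, 16.0 and 8.64 CPM in GalTKO and 4.08, 5.498 and 7.67 CPM in wildtype replicates 1 to 3, so the GalTKO libraries held both its lowest and its highest value. Per transcript length (TPM, computed from union exon length), Bst2 was the most abundant member at 261.4 ± 36.1 TPM in GalTKO and 251.1 ± 26.5 TPM in wildtype ovaries (SD, n = 3). Trim25 followed at 48.9 ± 12.4 TPM in GalTKO and 68.4 ± 8.91 TPM in wildtype ovaries, and Mx1 was the lowest at 0.0457 ± 0.0398 TPM in GalTKO and 0.313 ± 0.248 TPM in wildtype ovaries.

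The members also differed between the libraries of each genotype. GalTKO replicate 2, the library that stood apart on the second principal component, was the highest of the 3 GalTKO libraries for 24 of the 32 tested members, against 35.4% of all tested genes. Wildtype replicate 3 was the highest of the 3 wildtype libraries for 31 of the 32, Bst2 being the exception, against 36.8% of all tested genes. Both held for 24 members (75.0%) and for 12.3% of all tested genes. These shares describe 2 libraries, and members share the library and its depth, so no test was made. The member median of GalTKO replicate 2 over the mean of the other GalTKO libraries was 0.68 (log2, with 0.1 CPM added), and that of wildtype replicate 3 over the mean of the other wildtype libraries was 0.64. Over all tested genes these medians were -0.02 for GalTKO replicate 2 and -0.01 for wildtype replicate 3. Ifit3 deviated most in GalTKO replicate 2, by 1.74, and Ifit1 most in wildtype replicate 3, by 2.40. Rsad2 was at 0.16 in GalTKO replicate 2 and 2.08 in wildtype replicate 3, and Usp18 at -0.12 in GalTKO replicate 2 and 1.56 in wildtype replicate 3, so in these 2 genes the wildtype library deviated and the GalTKO library hardly did. The median coefficient of variation of the members was 33.04% in GalTKO and 31.2% in wildtype libraries, against 14.2% and 10.04% over all tested genes.

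**Figure D3:**
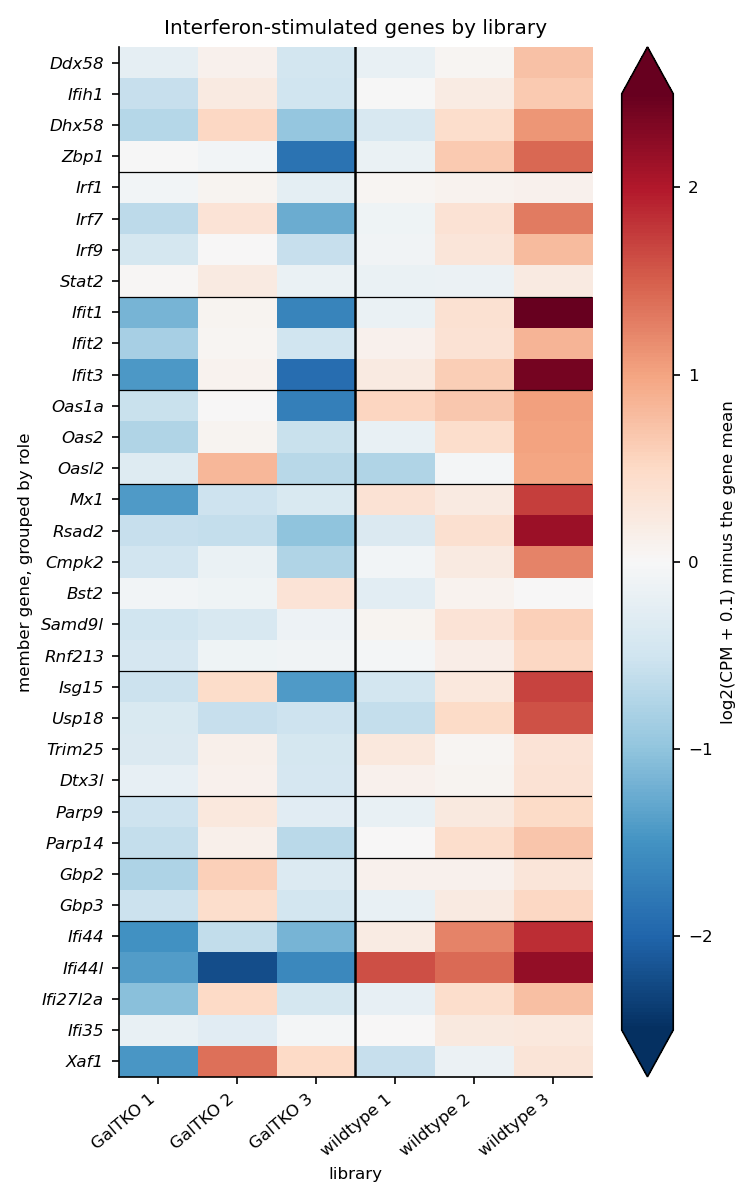
Level of the 33 members (rows, grouped by role) in the 6 libraries (columns, GalTKO left of wildtype), as log2(CPM + 0.1) minus the gene's mean over all libraries. GalTKO replicate 2 is redder than GalTKO replicates 1 and 3 in most rows, and wildtype replicate 3 is the reddest column.

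**Figure D4:**
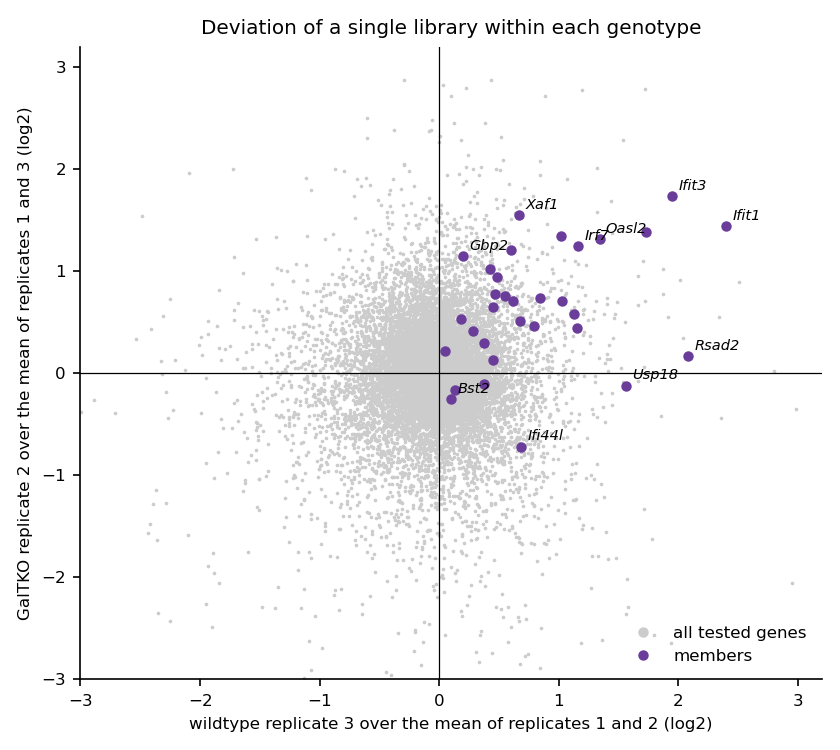
Deviation of GalTKO replicate 2 from the other GalTKO libraries (y axis, log2) and of wildtype replicate 3 from the other wildtype libraries (x axis, log2), for members (purple) and all tested genes (grey; genes outside the axes are not drawn). Of the 32 tested members, 27 lie above 0 on both axes, as do 22.1% of all tested genes.

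With both of these libraries left out, an alternative chosen after seeing the data, 2 libraries remained per genotype. The member median was then -0.66, and 29 of 32 fold changes were negative. In that fit 5 members passed, Ifi44, Ifi44l, Ifit3 (-2.18, edgeR adjusted p = 0.0254), Trim25 (-0.57, 0.0379) and Parp14 (-0.87, 0.0432), where 1.90% of all genes tested in it were called lower. Both libraries were picked in part on the members' own levels, so these passes are not a separate check. Ifit3 passed in 0 of the 6 fits with a single library left out. Without GalTKO replicate 2 alone the median was -0.97 and 6 members passed, with 2.43% of all genes called lower, and without wildtype replicate 3 alone it was -0.36 and 1 passed, with 0.680% called lower.

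Markers of cells that carry interferon-stimulated genes also differed between the genotypes. The summed level of 17 macrophage and monocyte genes was 350.8 to 382.8 CPM in GalTKO and 533.8 to 640.7 CPM in wildtype libraries, with 6 of the 17 called lower (Csf1r, Mpeg1, C1qb, Cd163, Lyz2 and Ctss) and none higher. That of 9 endothelial genes was 494.2 to 534.8 CPM in GalTKO and 603.9 to 767.3 CPM in wildtype libraries, with Pecam1, Kdr and Flt1 called lower. Over all tested genes 1.43% were called lower and 1.13% higher. Neither macrophage nor endothelial markers were at 0 in any library, and their part in the fold changes of the members was not tested. GalTKO replicate 2 had a macrophage sum of 382.8 CPM, the highest of the GalTKO libraries and close to the 381.4 CPM of GalTKO replicate 1, and wildtype replicate 3 had the lowest wildtype sum, 533.8 CPM. The endothelial sum was highest in replicate 2 among GalTKO libraries (534.8 CPM) and in replicate 3 among wildtype libraries (767.3 CPM). The 6 theca and luteal markers summed to 7537 to 11787 CPM in GalTKO and 12534 to 19419 CPM in wildtype libraries, with the highest sums in GalTKO replicate 3 and wildtype replicate 3. Of the 6, 1 was called, Star, which was lower without overlap (-1.13 ± 0.19, log2, SE, edgeR adjusted p = 0.0263). Cyp17a1 stood at 0.92 ± 1.198 (log2, SE), while 5 of the 6 were negative. The 6 granulosa markers summed to 3440 to 3851 CPM in GalTKO and 3511 to 4281 CPM in wildtype libraries. Of these, Amh was called higher (0.76 ± 0.12, log2, SE, edgeR adjusted p = 0.0214) and Nr5a2 lower (-0.64 ± 0.13, adjusted p = 0.0425), both without overlap. None of the oocyte markers or of the oviduct and ovarian surface epithelium markers was called. T and NK cell markers summed to 7.16 to 9.06 CPM in GalTKO and 9.995 to 11.8 CPM in wildtype libraries. B cell markers summed to 1.77 to 2.24 CPM in GalTKO and 1.78 to 1.86 CPM in wildtype libraries. Neutrophil markers stayed at or under 1.01 CPM in sum in GalTKO and 1.299 CPM in wildtype libraries, with no count of Ly6g. Of 5 plasmacytoid dendritic cell genes, Siglech, Ccr9 and Cox6a2 stayed too low for the test, Klk1, also made by other cells, rose by 2.39 (log2, edgeR adjusted p = 0.00361), and Tlr9 stood at -0.67 ± 0.36 (SE, adjusted p = 0.399). Erythroid markers summed to 2.01 to 3.84 CPM in GalTKO and 2.96 to 6.71 CPM in wildtype libraries. The part of these markers in the results on the members was not tested.

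Interferons themselves were hardly detected, and their receptors did not pass the test. Of 9 interferon genes looked for, 6 had no count in any library and the other 3 held 1 (Ifnb1), 2 (Ifng) and 11 (Ifnl3) counts over all 6 libraries. A count of 0 allows up to 0.156 CPM in the shallowest library. All 6 receptor genes were tested and none passed in edgeR, none had an unadjusted p under 0.05, and the fold changes lay between -0.17 and 0.22. Ifngr1 had the smallest p, at 41.0, 40.8 and 39.9 CPM in GalTKO and 44.6, 48.3 and 44.0 CPM in wildtype replicates 1 to 3 (-0.17 ± 0.08, SE; adjusted p = 0.35). Ifngr2 stood at 0.10 ± 0.10 and Il10rb at -0.10 ± 0.13. DESeq2 and limma voom called none of the receptors either.

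Of 25 listed genes of interferon signalling and induction 23 were tested, of which 1 rose and 1 fell, against 1.13% of all tested genes called higher and 1.43% called lower. The list median was -0.15, and that of all genes 0.02. Tlr7, the endosomal sensor of single-stranded RNA, had 3.99, 4.10 and 3.70 CPM in GalTKO, against 6.997, 8.33 and 7.19 CPM in wildtype replicates 1 to 3 (-0.93 ± 0.17, SE; edgeR adjusted p = 0.0282). Ikbke, a kinase that activates IRF3 and IRF7, had 9.17, 13.4 and 11.3 CPM in GalTKO, against 5.597, 4.10 and 5.98 CPM in wildtype replicates 1 to 3 (1.11 ± 0.21, adjusted p = 0.0327). The groups were separate in both genes. Over all tested genes, every GalTKO value lay below every wildtype value in 12.0% and above in 11.8%. GalTKO replicate 2 was the highest GalTKO library for Tlr7 and Ikbke, as for most members. Wildtype replicate 3 was the highest wildtype library for Ikbke but not for Tlr7. Tlr7 lost its call with any library but GalTKO replicate 2 left out (adjusted p up to 0.133), and Ikbke without GalTKO replicate 3 or any 1 of the wildtype libraries (up to 0.122).

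A further 58 interferon-induced genes outside the set were counted in the same fit. Like the members, they were listed with earlier results of these data known and measured in the same libraries, so they are not an independent check. Of the 57 tested, 46 had a negative fold change, against 46.6% of all tested genes, and the median was -0.51. Of the 57, 3 fell and none rose, beside 1.43% of all tested genes called lower and 1.13% called higher. Ifi203, of the interferon-inducible HIN-200 family of DNA-binding proteins, had 15.2, 16.0 and 14.2 CPM in GalTKO, against 22.3, 26.9 and 27.2 CPM in wildtype replicates 1 to 3 (-0.75 ± 0.12, SE; edgeR adjusted p = 0.0172). Its family member Ifi207 had 3.95, 3.32 and 4.22 CPM in GalTKO, against 7.12, 8.58 and 7.62 CPM in wildtype replicates 1 to 3 (-1.02 ± 0.18, adjusted p = 0.0257). Slfn5, of the Schlafen family, had 14.8, 15.1 and 15.6 CPM in GalTKO, against 21.2, 28.2 and 31.2 CPM in wildtype replicates 1 to 3 (-0.82 ± 0.15, adjusted p = 0.03). All GalTKO values lay below all wildtype values in 20 of the 57 and above them in 2, against 12.0% and 11.8% of all tested genes. In all 3 called genes the GalTKO libraries lay close together and below every wildtype library. Their calls were lost in part of the fits with a library left out, in 4 of 6 for each of the 3 genes: for Ifi203 and Slfn5 without replicate 2 or 3 of wildtype or replicate 1 or 3 of GalTKO, and for Ifi207 without GalTKO replicate 1 or any 1 of the wildtype libraries (adjusted p up to 0.129). HIN-200 genes are closely related copies, so reads shared between them make their values uncertain.

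**Figure D5:**
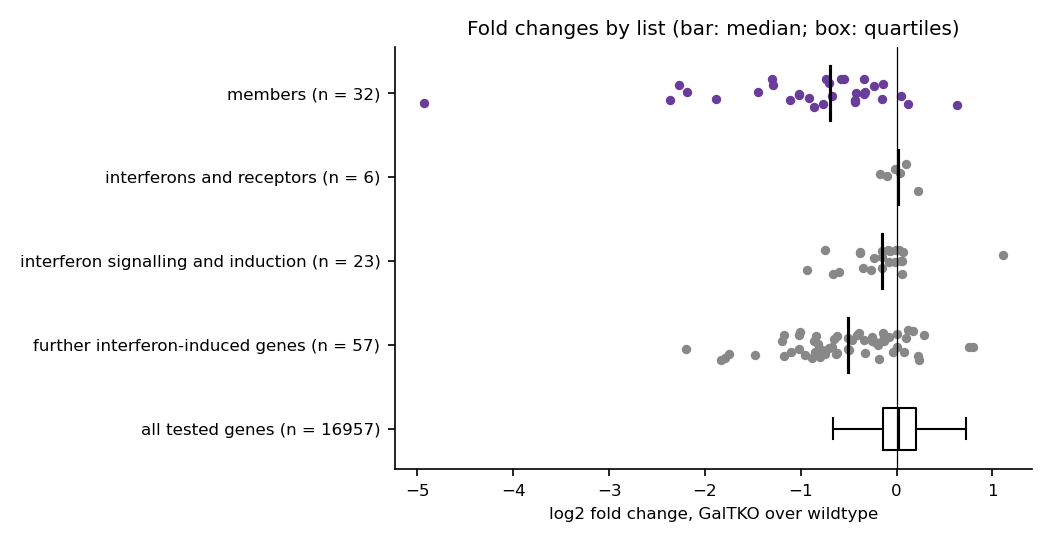
Log2 fold change (GalTKO over wildtype, x axis) of each tested gene in the member set and 3 further lists, with the median as a bar, above a box of the quartiles of all 16957 tested genes. The medians are -0.69 for the members, 0.01 for interferons and receptors, -0.15 for signalling and induction and -0.51 for further interferon-induced genes.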

How the data were processed

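Total RNA from whole ovaries was depleted of ribosomal RNA and made into stranded libraries, per the labels' protocols. The authors deposited raw counts per Ensembl gene, whole numbers with no normalization. Cutadapt 1.16, featureCounts 1.6.3, STAR 2.7.6a, the build GRCm38 and DESeq2 1.30.1 are named, per the submitters' processing notes. Settings for strand, overlap and multi-mapping are not stated in the sources used here. Identifiers were matched to GENCODE M21 (55227 of 55487). The members and lists were chosen with earlier results of these data known.

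Counts were tested in edgeR 4.0.16 (R 4.3.3): filterByExpr (minimum count 10, total 15), TMM scaling, a robust quasi-likelihood fit of genotype to all 6 libraries, and two-sided p adjusted by Benjamini-Hochberg over 16957 genes, called under 0.05. The SE is the fold change over the square root of F. The script was tested on simulated data. DESeq2 1.42.0, limma 3.58.1 and other settings were alternatives. Full values are given for members called or with an unadjusted p under 0.05, and for the 2 most abundant others of a role group. A count of 0 was taken to allow 3 counts. Intervals are exact binomial (Clopper-Pearson, 95%) and, like floors, cover counting error only. Every pair of libraries differed by more than sampling noise (chi-square per degree of freedom at least 12.0). The symbol Mb21d1 was not matched. The values of 1 gene of the signalling list are not reported here.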

Additional observations from a re-analysis of the deposited data

How the results depend on the processing

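The 29 negative and 3 positive fold changes of the members were the same in number under median-of-ratios and upper-quartile scaling, and the member median stayed between -0.97 (without GalTKO replicate 2) and -0.36 (without wildtype replicate 3). The 2 called members became 6 by DESeq2, 1 by limma voom, 4 with no filter on low counts, from 1 to 6 with a library left out, and 5 without both wildtype replicate 3 and GalTKO replicate 2. The 433 calls over all genes became 1044 by DESeq2, 877 with no filter on low counts, 761 at an adjusted p under 0.1, and from 165 to 742 with a library left out. The 2 called signalling genes became 4 by DESeq2, 4 with no filter, 4 at an adjusted p under 0.1, 1 without both libraries and from 0 to 4 with a library left out. The 3 further interferon-induced genes became 11, 8 and 5 under the first 3 of these settings and from 0 to 6 with a library left out. Signs turned in genes that were not called. With a library left out, Stat2 ran from -0.054 to 0.19, with -0.017 and -0.019 without wildtype replicates 1 and 2, Oasl2 from -0.73 to 0.45, with 0.029 and 0.12 without GalTKO replicates 1 and 3, Bst2 from -0.040 to 0.20, Gbp2 from -0.73 to 0.025, Xaf1 from -0.11 to 1.11 and Il10rb from -0.24 to 0.0061. By limma voom Xaf1 was at -0.068. The cause of these shifts was not tested. Smaller groups have less power. The replicate numbers share no stated source, and same-numbered libraries correlated at 0.093, -0.040 and 0.078 in their deviations. With the replicate block 3 members passed (Samd9l, Ifi44 and Ifi44l), with 321 genes in all, and of the genes named outside the set Ikbke, Tlr7 and Ifi207 lost their calls, which left 0 signalling genes. Low counts, as the 3 of Ifi44l and the 4 of Mx1 over the GalTKO libraries, limit the precision of single values.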
